A study of Mus musculus with 6 samples.

Results

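The genes described are 10 matrix metalloproteinases, Mmp2, Mmp3, Mmp8, Mmp9, Mmp12, Mmp13, Mmp14, Mmp19, Mmp25 and Mmp27, taken as every non-control probe whose gene name on the array is one of these. They were read by 12 of the 39429 probes, Mmp12 and Mmp27 having 2 probes each, and they are 10 of the 28312 named genes on the array. Of these 10 genes, 6 were bright enough to be tested, among 16365 genes tested in all. A gene was tested when its probe stood well above background, by the scanner software's own flag, on every array of at least one tissue, so a gene that was dim in one tissue entered the test only through the tissue where it was bright.

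The samples were myeloid cells from C57BL/6N wild-type mice taken 3 days after acute myocardial infarction. The 3 heart samples (numbers 1, 2 and 4) came from the infarcted left ventricle and the 3 spleen samples (numbers 1, 2 and 4) from the spleen, so both groups carry the infarction and no uninfarcted mice were analysed here. Flow cytometry kept cells with high CD45 and high CD11b. Cells carrying lymphoid antigens (CD45R/B220 on B cells, CD90.2/Thy-1.2 on T cells, and both CD49b/DX5 and NK-1.1 on natural killer cells) were gated out, as were cells with the neutrophil antigen Ly6G. RNA was amplified once and hybridised to one-colour Agilent arrays, 1 sample per array. Levels are log2 processed signal minus the array's 75th percentile, so 0 is the brightness below which 75% of its probes lie. Between 52.8% and 63.6% of probes stood well above background on each array and none was saturated. The sort markers Ptprc (CD45) and Itgam (CD11b) were bright on all 6 arrays and were not called different between the tissues (limma adjusted p = 0.673 and 0.938). Thy1 was at 3.63 on spleen 1, against -1.20 and -3.40 on spleens 2 and 4. Expression varied more between spleen arrays than between heart arrays, with a median SD per gene of 0.14 among hearts and 0.41 among spleens. The labels do not say whether a heart and a spleen with the same number came from one mouse, and p-values measure the spread between these samples.

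Matrix metalloproteinases are zinc-dependent endopeptidases that cut collagens, elastin, basement membrane proteins and many cell surface and signalling proteins. Most are secreted as latent proenzymes that other proteases open, tissue inhibitors of metalloproteinases (TIMPs) block the active enzymes, and many of their genes are induced by inflammatory cytokines through AP-1, a dimer of Fos and Jun family proteins. In the infarcted heart they are known from infiltrating neutrophils and macrophages and from fibroblasts, and they take part in clearing necrotic matrix and in scar remodelling.

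The promoters of Mmp13 and Mmp14 are shown because both genes were called higher in heart cells, and because the first holds the AP-1 motif TGANTCA in its window and the second does not. Those of Mmp3 and of the second annotated start of Mmp12 are shown as the only other members with a match, a choice made after the search. Each line gives the 250 bases before the annotated start site, 5′ to 3′, from RefSeq on GRCm38.p6, in lower case with the motif match in capitals.
Mmp13, chr9:7272264-7272513, plus strand: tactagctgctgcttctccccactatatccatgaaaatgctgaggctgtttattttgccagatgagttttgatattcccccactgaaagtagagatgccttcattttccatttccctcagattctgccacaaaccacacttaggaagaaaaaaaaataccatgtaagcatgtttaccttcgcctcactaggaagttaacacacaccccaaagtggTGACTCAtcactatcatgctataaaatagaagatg
Mmp14, chr14:54431348-54431597, plus strand: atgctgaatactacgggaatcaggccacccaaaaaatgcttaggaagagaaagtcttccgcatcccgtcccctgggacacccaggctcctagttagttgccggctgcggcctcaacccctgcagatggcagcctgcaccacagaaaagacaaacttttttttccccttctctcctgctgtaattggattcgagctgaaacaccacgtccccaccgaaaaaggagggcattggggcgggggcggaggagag
Mmp12, chr9:7347124-7347373, plus strand: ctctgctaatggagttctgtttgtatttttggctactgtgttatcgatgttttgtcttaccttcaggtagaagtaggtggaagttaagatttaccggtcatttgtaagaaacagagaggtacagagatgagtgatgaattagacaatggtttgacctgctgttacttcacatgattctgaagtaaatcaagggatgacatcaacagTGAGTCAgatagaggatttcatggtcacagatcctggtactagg
Mmp3, chr9:7445572-7445821, plus strand: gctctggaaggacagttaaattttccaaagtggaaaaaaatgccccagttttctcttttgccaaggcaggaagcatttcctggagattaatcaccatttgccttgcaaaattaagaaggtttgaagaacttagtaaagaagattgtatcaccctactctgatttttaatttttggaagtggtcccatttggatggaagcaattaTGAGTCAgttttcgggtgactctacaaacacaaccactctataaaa

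The motif was sought on both strands, which it reads alike, in windows of 300 bases running from 250 before to 50 after the start. The windows covered 7 of the 10 members, and Mmp2, Mmp9 and Mmp19 had no entry. A match was present for 3 of these 7 genes, while 8.97% of the 27025 genes with a window and 7.81% of the 32851 windows had one. The match began 35 bases before the start in Mmp13, as TGACTCA, 46 bases before it in Mmp3, as TGAGTCA, and 44 bases before it in the second window of Mmp12, also as TGAGTCA. No match lay in the windows of Mmp8, Mmp14, Mmp25 and Mmp27 or in the first window of Mmp12. The 3 matched genes did not share a pattern of expression. Mmp13 was well above background on all 3 heart arrays and on no spleen array. The brighter Mmp12 probe was above background on 2 heart arrays alone, and Mmp3 was above background on none of the 6 arrays.

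**Figure D1:**
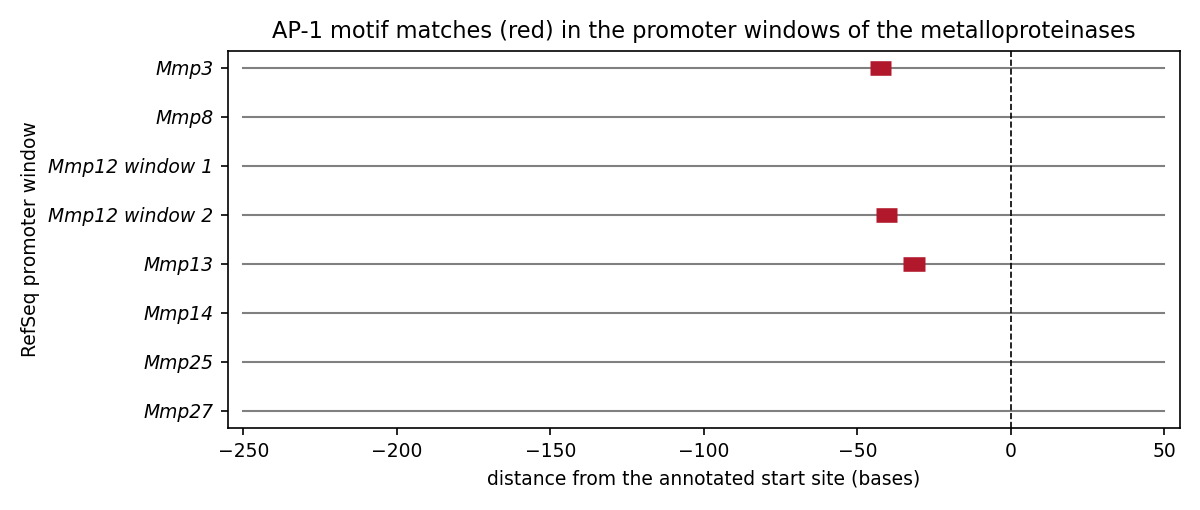
Each grey line is 1 RefSeq promoter window of a metalloproteinase gene, drawn against the distance in bases from the annotated start site (dashed line), and red blocks are matches to the AP-1 motif. The 3 matches lie 35 to 46 bases before the start, in Mmp13, Mmp3 and the second window of Mmp12.

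Between heart and spleen cells, Mmp13 (collagenase 3), Mmp14 (the membrane-bound activator of Mmp2) and Mmp19 (a secreted protease with basement membrane substrates) were called higher in heart cells, at a limma adjusted p under 0.05 over all genes tested. Mmp8 (neutrophil collagenase), Mmp9 (gelatinase B) and Mmp25 (leukolysin) were not called. Thus 3 of the 6 members tested were called, all higher, where 15.4% of all genes tested were called in either direction, 8.88% higher and 6.52% lower. The median log2 difference of the 6 was 1.63, or 1.22 with dim arrays set to the detection floor, beside a median of 0.10 over all genes tested. Mmp13 and Mmp14 passed the filter through the heart arrays alone and Mmp25 through the spleen arrays alone, so these counts and medians describe the tested genes and not the whole set. The heart and spleen arrays did not overlap for 4 of the 6, as for 40.7% of all genes tested: Mmp13, Mmp14 and Mmp19 were higher on every heart array, as were 24.1% of all genes tested, and Mmp25 was lower on every heart array, as were 16.6%.

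**Figure D2:**
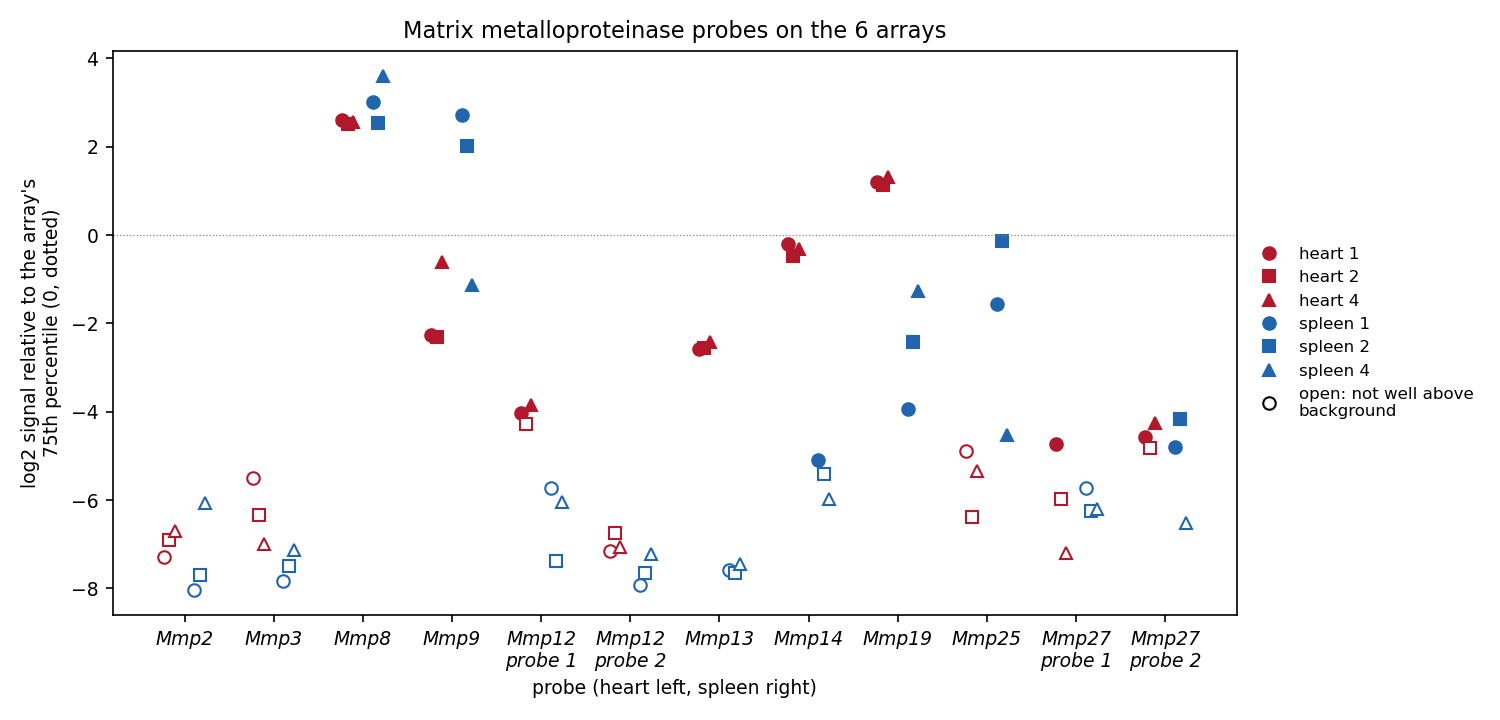
Points are the level of each of the 12 metalloproteinase probes on each array, as log2 signal relative to the array's 75th percentile, with heart arrays on the left and spleen arrays on the right of each pair and open symbols where the probe was not well above background. Mmp13, Mmp14 and Mmp19 lie higher on all 3 heart arrays, Mmp25 lies lower on all 3, and Mmp9 on spleen 4 lies among the heart values. Levels of different probes are not comparable with each other.

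Mmp13 encodes the main interstitial collagenase of the mouse, which cuts fibrillar collagens, and its probe lies at chr9:7282762-7282821 on the plus strand (all probe positions are on mm9). Its level was -2.57, -2.56 and -2.43 in heart samples 1, 2 and 4, against -7.58, -7.66 and -7.44 in spleen samples 1, 2 and 4. The processed signal was 254, 246 and 313 units in heart cells and 9.75, 7.87 and 9.54 units in spleen cells. The probe was well above background on all 3 heart arrays and on no spleen array, so the groups were far apart and only a bound can be put on the spleen level. Mean levels were -2.52 ± 0.08 in heart and -7.56 ± 0.11 in spleen cells (SD, n = 3 each), and the heart level was at least 7.59-fold higher. That bound sets the heart mean against, on each spleen array, the dimmest signal that was still well above background or the probe's own, whichever was higher. The fitted log2 difference of the measured signals was 5.04 ± 0.16 (SE), with an adjusted p of 8.21e-05, but its spleen side was read at background. Without any 1 array the bound lay between 6.87 and 8.29-fold. Mmp13 was called in each of the 21 alternative analyses that tested it, with adjusted p between 6.31e-05 and 0.0381. These calls are not independent, because most reused the same spleen readings at background. The fit with slide as a fixed block took its difference from heart 1 and spleen 4 alone. The call with a separate variance per tissue rests in part on the spread of those readings. A filter requiring signal above background on every array left Mmp13 untested. The bound uses the detection floor in place of those readings. Its promoter, printed above, carries the TGACTCA match.

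Mmp8, at chr9:7568238-7568297 on the plus strand, is a secreted collagenase known as a protein stored in neutrophil granules. Its level was 2.59, 2.52 and 2.56 in heart samples, against 3.01, 2.54 and 3.59 in spleen samples, so both tissues lay well above their arrays' 75th percentile and spleen 2 fell among the heart values. Means were 2.56 ± 0.04 in heart and 3.05 ± 0.53 in spleen cells (SD, n = 3 each). The log2 difference was -0.49 ± 0.28 (SE), with a 95% interval of -1.17 to 0.19 and an adjusted p of 0.294. That interval allows anything between a lower heart level and a slightly higher one. In none of the 22 alternatives that tested Mmp8 was it called, and the adjusted p lay between 0.101 and 0.591.

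Mmp14, at chr14:55058775-55058834 on the plus strand, encodes membrane type 1 metalloproteinase, a collagenase anchored in the cell surface that also opens the latent form of Mmp2. Its level was -0.20, -0.47 and -0.32 in heart samples, against -5.10, -5.41 and -5.97 in spleen samples. All hearts stood well above all spleens, and among the spleens only number 1 was well above background. Means were -0.33 ± 0.13 in heart and -5.49 ± 0.44 in spleen cells (SD, n = 3 each). The log2 difference was 5.16 ± 0.26 (SE; adjusted p = 0.000349), and it was 4.91 with the dim spleen arrays set to the detection floor. Mmp2, the gelatinase that Mmp14 activates, stood well above background on none of the 6 arrays. Its probe, at chr8:95376840-95376899, gave 9.62, 12.1 and 16.2 signal units in heart samples and 7.16, 7.70 and 24.9 units in spleen samples. No level of Mmp2 in either tissue can therefore be given.

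Mmp19, at chr10:128236221-128236280 on the plus strand, was well above background on all 6 arrays. Its level was 1.19, 1.14 and 1.32 in heart samples, against -3.93, -2.41 and -1.26 in spleen samples. The hearts lay close together, the spleens were spread over 2.67 log2 units, or 6.37-fold, and no spleen reached a heart. Means were 1.22 ± 0.09 in heart and -2.53 ± 1.34 in spleen cells (SD, n = 3 each), a log2 difference of 3.75 ± 0.63 (SE; adjusted p = 0.0153), or 13.5-fold. The call was lost without heart 1, heart 2 or heart 4 (adjusted p = 0.0696, 0.0675 and 0.0721), although the log2 difference then lay between 3.70 and 3.79. Leaving out a spleen kept the call and moved the difference to 3.05 (8.29-fold) without spleen 1 and to 4.39 (20.9-fold) without spleen 4. The call was also lost when each tissue had its own variance (adjusted p = 0.240). It was lost too with slide as a fixed block, where the difference was 2.45, that of heart 1 and spleen 4 alone.

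Mmp9 (chr2:164780620-164780679, plus strand), a gelatinase that cuts denatured collagen and basement membrane collagen and is stored in neutrophil granules, was read by 10 spots per array. Its level was -2.27, -2.31 and -0.61 in heart samples, against 2.71, 2.01 and -1.13 in spleen samples. Spleens 1 and 2 were far above all hearts, while spleen 4 lay between heart 4 and the other two hearts, so the groups overlapped. Within an array the SD over the 10 spots was 0.03 to 0.11 log2 units, whereas spleen 1 exceeded spleen 4 by 3.84 log2 units, or 14.3-fold. Means were -1.73 ± 0.97 in heart and 1.20 ± 2.05 in spleen cells (SD, n = 3 each). The log2 difference of -2.93 ± 1.04 (SE) was not called, with a limma adjusted p of 0.110. Without spleen 4 the difference was -4.09 with an adjusted p of 0.00765, and over numbers 1 and 2 alone, which share a date in their titles, it was -4.65 with an adjusted p of 0.0136. Without spleen 1 or spleen 2 the difference was -2.17 or -2.52 and was not called (adjusted p = 0.213 and 0.234). The later-dated arrays differed by 0.52 in the opposite direction, heart 4 minus spleen 4, a single pair with no test.

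Mmp25 (chr17:23767090-23767149, minus strand) encodes a membrane-anchored metalloproteinase known from neutrophils. Its level was -4.88, -6.39 and -5.34 in heart samples, against -1.55, -0.14 and -4.52 in spleen samples. The probe was well above background on all 3 spleen arrays and on no heart array, and every heart was below every spleen, although spleen 4 was close to heart 1. Means were -5.54 ± 0.77 in heart and -2.07 ± 2.24 in spleen cells (SD, n = 3 each). With heart arrays at the detection floor, or at their own signal where higher, the heart mean was 6.74-fold lower. This bound covers only the dim heart signals of these 6 arrays and leaves out the spread between spleens. That bound was 3.45-fold without spleen 2, 5.63-fold without spleen 1 and 15.7-fold without spleen 4. The fitted log2 difference of -3.46 ± 1.08 (SE) was not called (adjusted p = 0.0813). As with Mmp9, leaving out spleen 4 changed this, to -4.69 with an adjusted p of 0.00541, and so did the use of numbers 1 and 2 alone, with -4.79 and an adjusted p of 0.0341. Without spleen 2 the difference was -2.50 and was not called (adjusted p = 0.153). Between heart 4 and spleen 4 the difference was -0.38 with heart 4 at the detection floor.

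**Figure D3:**
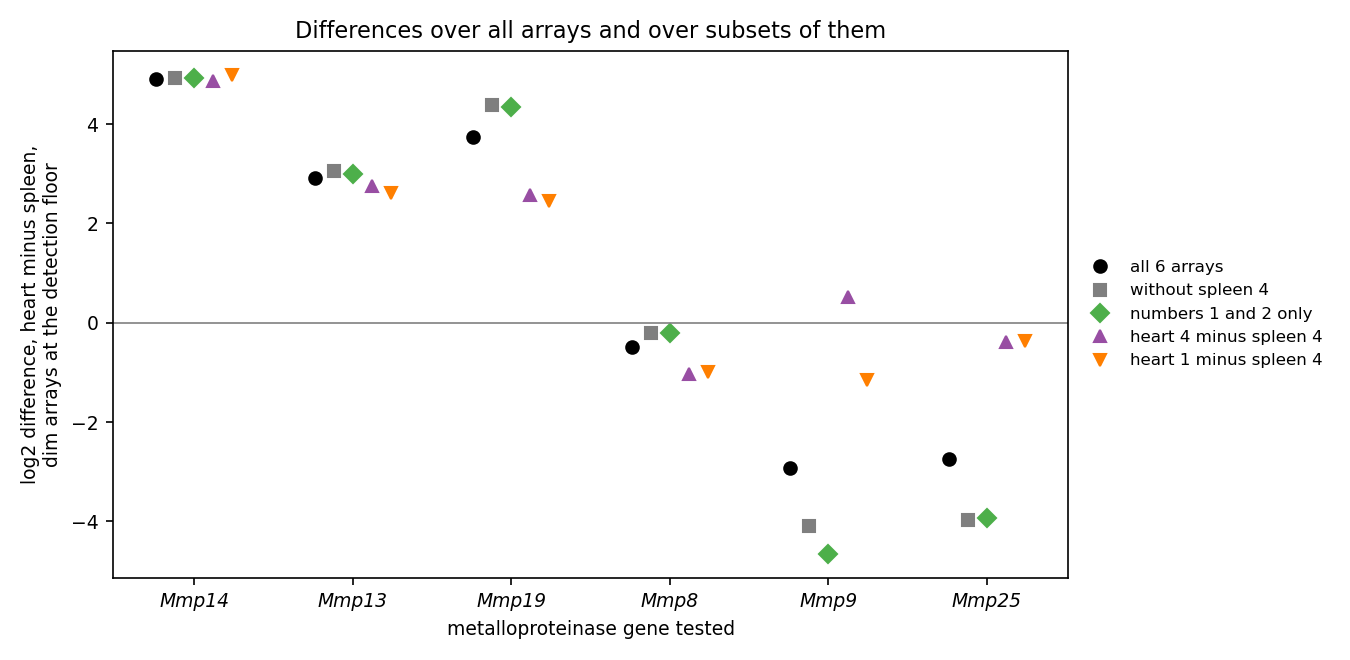
The log2 difference, heart minus spleen, of the 6 metalloproteinases tested is shown over all 6 arrays (black), without spleen 4, over numbers 1 and 2 alone, for heart 4 minus spleen 4 and for heart 1 minus spleen 4, with arrays that were not well above background set to the detection floor where their own signal was lower. So drawn, Mmp14 lies between 4.87 and 4.995, Mmp13, a lower bound, between 2.62 and 3.05, and Mmp9 between -4.65 and 0.52.

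Slides held both tissues only once, with heart 1 and spleen 4 on 1 slide. Within that slide heart 1 exceeded spleen 4 by 2.45 for Mmp19 on the log2 scale. For Mmp13 and Mmp14, which were dim on spleen 4, it was higher by at least 2.62 and 4.995, with spleen 4 at the detection floor. The difference of the same arrays was -1.14 for Mmp9, -0.997 for Mmp8 and -0.36 for Mmp25. With slide as a fixed block, the tissue difference was that of heart 1 and spleen 4 alone. It was 4.87 for Mmp13 and 5.77 for Mmp14 on the measured signals. The error of that fit came from the other slides, which each held a single tissue, so its calls rest on this single pair.

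Mmp12, macrophage elastase, was read by 2 probes. The first, at chr9:7352935-7352994, was at -4.04, -4.29 and -3.85 in heart samples, against -5.73, -7.37 and -6.03 in spleen samples, and every heart exceeded every spleen. It was well above background on 2 of 3 heart arrays and on no spleen array, so it missed the filter, and no fold is given because heart 2 was dim as well. An exact two-sided permutation test gave p = 0.1, the smallest that 3 against 3 samples allow. The same exact permutation test gave p = 0.1 for the second Mmp12 probe and for Mmp3, both dim on every array. Dim signal alone can thus give this separation, and the test cannot tell a higher heart level from background. With no filter on dim probes, the difference of the measured signals, background included, was called (limma adjusted p = 0.0420). Its spleen side was read at background, so this call does not establish a higher heart level. The second probe, at chr9:7360373-7360432, failed to stand well above background on any array, so the heart signal rests on 1 probe and 2 heart arrays.

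Mmp3, stromelysin 1, which cuts many matrix proteins and opens other latent metalloproteinases, failed to stand well above background on any array (chr9:7455751-7455810). Its signal was 33.6, 17.9 and 13.2 units in heart samples and 8.21, 8.83 and 11.8 units in spleen samples, and with no filter the adjusted p was 0.168. For Mmp27, a little-studied member, the probe at chr9:7573412-7573471 was above background on 1 heart array alone. The probe at chr9:7581328-7581387 was at -4.58, -4.83 and -4.27 in heart samples, against -4.80, -4.17 and -6.52 in spleen samples. It was above background on 2 arrays of each tissue, the groups overlapped, and with no filter the difference was 0.60 (adjusted p = 0.534).

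Of the 13 other metalloproteinases on the array, 3 were bright enough to be tested and 1 was called. Beside this and each list count below, 15.4% of all genes tested were called, 8.88% higher and 6.52% lower. Mmp7, matrilysin, was at -3.25, -3.28 and -3.36 in heart samples, against -4.75, -5.84 and -5.05 in spleen samples. Its log2 difference was 1.92 ± 0.30 (SE; adjusted p = 0.0123), or 1.77 with the 2 dim spleen arrays at the floor, and the call was lost without any 1 heart. Mmp17 and Mmp24, both membrane-anchored, differed by 0.40 and 0.55 and were not called (adjusted p = 0.157 and 0.113).

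Among 10 inhibitors of metalloproteinases and of their activators, 4 were tested, 3 were called higher and none lower, with a median log2 difference of 4.15. Timp1, which blocks most secreted metalloproteinases, was at 3.64, 2.95 and 3.56 in heart samples, against -3.94, -4.21 and -3.52 in spleen samples, a difference of 7.28 ± 0.28 (SE; adjusted p = 0.000175). Timp1 did not overlap between tissues, and it was called in all 22 alternatives. Timp2, which joins Mmp14 and latent Mmp2 in a complex, differed by 1.02 ± 0.27 (SE; adjusted p = 0.0486) and was called in 8 of 22 alternatives. Reck, a membrane-anchored inhibitor, differed by 0.07 and was not called (adjusted p = 0.900).

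Of 12 proteases and receptors that activate latent metalloproteinases, 8 were tested, 1 was called higher and 2 lower, with a median of 0.13. Plaur, the urokinase receptor, was higher in heart cells by 1.55 ± 0.31 (SE; adjusted p = 0.0227). The neutrophil granule proteases Ctsg and Prtn3 were lower, with log2 differences of -5.55 ± 1.19 and -2.85 ± 0.63 (SE; adjusted p = 0.0283 and 0.0314), and the related Elane differed by -1.50 and was not called (adjusted p = 0.248). Of 11 genes for proteins that bind or clear metalloproteinases, 10 were tested, 4 were called higher and 2 lower, with a median of 0.95. Lcn2, a neutrophil granule protein listed for its complex with MMP9 in human cells, was at 2.08, 1.70 and 1.89 in heart samples. In spleen samples it was at 6.86, 7.89 and 5.98. Its log2 difference was -5.02 ± 0.47 (SE; adjusted p = 0.00250), without overlap, whereas Mmp9 itself overlapped. Cd44, which holds Mmp9 at the cell surface, was higher by 1.75 ± 0.27 (SE; adjusted p = 0.0122). Thbs1 and Sdc1 were higher by 7.01 and 4.87 (adjusted p = 0.00377 and 0.00744), and Itgb2 differed by 0.47 and was not called (adjusted p = 0.355).

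Matrix genes whose products metalloproteinases cut were measured in the same cells. Of 20 such genes 17 were tested and 8 were called higher, none lower, with a median of 2.05, or 1.27 with bounds. Several entered the test through the heart arrays alone. With signal required above background on all 6 arrays, 7 were tested and 2 were called. Over all genes tested 8.88% were called higher. Spp1 (osteopontin) was higher by 7.15 ± 0.39 (SE; adjusted p = 0.000517). For Col3a1 the heart level was at least 25.5-fold higher, and the fitted log2 difference of its measured signals was 5.59 (adjusted p = 0.00749). Both leave out spleen 1, whose spot the scanner software marked as an outlier. Dcn, above background on 1 spleen array, was higher by 4.27 (adjusted p = 0.0115), or 3.62 with dim arrays at the floor, and Fn1 differed by 0.89 and was not called (adjusted p = 0.174).

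All 9 AP-1 genes were tested, 6 were called higher and none lower, with a median of 3.18, where 8.88% of all genes tested were called higher. All 9 were higher on every heart array than on any spleen array, as were 24.1% of all genes tested. Fosb was higher by 5.68 ± 0.98, Fosl1 by 3.52 ± 0.76 and Atf3 by 3.38 ± 0.43 (SE; adjusted p = 0.0164, 0.0294 and 0.00660), and Fosl1, above background on 1 spleen array, by 2.09 with dim arrays at the floor. Without any 1 heart 3 of the 9 were called, and Fosb and Fosl1 were not among them. Jund differed by 1.59 and was not called (adjusted p = 0.0659). Of 10 cytokines known to induce metalloproteinases, 8 were tested and 6 were called higher, none lower, with a median of 4.31, or 3.36 with bounds. Il6 was higher by 7.17 ± 0.91 and Osm by 5.53 ± 0.79 (SE; adjusted p = 0.00668 and 0.00963). Il6 was above background on 1 spleen array, and its difference was 6.74 with dim arrays at the floor. The Il1a level was at least 24.9-fold higher, and the fitted log2 difference of its measured signals was 6.46 (adjusted p = 0.000663). Tgfb1 differed by 0.76 and was not called (adjusted p = 0.110). Any link between these genes and the level of a metalloproteinase was not tested.

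**Figure D4:**
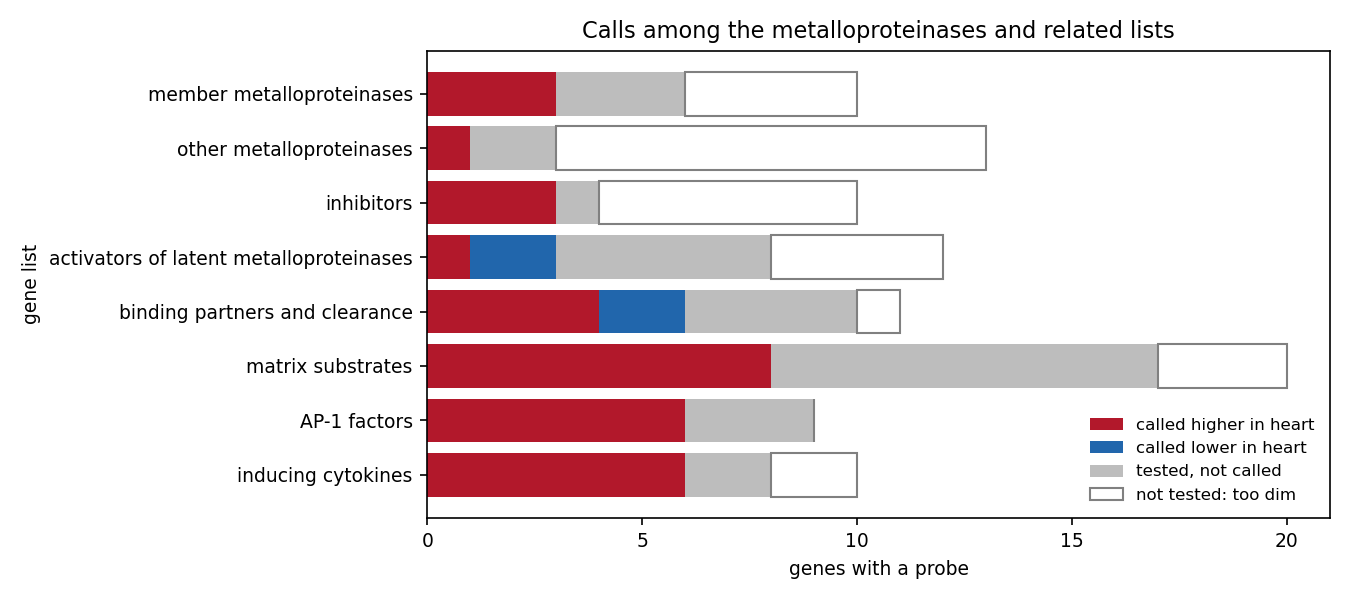
Bars count the genes of each list with a probe on the array, split into those called higher in heart cells (red), called lower (blue), tested but not called (grey) and too dim to test (white). Among the 10 metalloproteinases described, 3 were called higher and 4 were too dim, and 6 of 9 AP-1 genes were called higher. Over all genes tested 8.88% were called higher.

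Marker genes of other cells differed between the tissues too. In whole sorted populations a smaller share of cells of one type and less RNA per cell cannot be told apart. Beside the higher Mmp13 and Mmp14, 6 of the 7 fibroblast markers tested were called higher in heart cells and none lower. Over all genes tested 8.88% were called higher. Col1a1, Col1a2, Col3a1 and Dcn, among these called markers, were already counted in the matrix list above. Thy1, the remaining marker tested, was lower on every heart array, with a log2 difference of -4.09, and was not called (adjusted p = 0.145). Pdpn, which activated macrophages also make, was above background on 1 spleen array and higher by 8.68 ± 0.63 (SE; adjusted p = 0.00116), or 7.74 with dim arrays at the floor. Mgp was at least 10.5-fold higher, and the fitted log2 difference of its measured signals was 5.57 (adjusted p = 0.00101). The other 5 of 12 fibroblast markers were too dim to test, of which Lum was above background on 2 heart arrays, Postn on 1 heart array, and Pdgfra, Tcf21 and Dpt on no array. The summed level of the list, in units of the 75th percentile, was 8.42 to 9.78 in heart samples and 0.242 to 12.6 in spleen samples, the highest being spleen 1, where Thy1 was bright. Of 7 cardiomyocyte markers tested 4 were higher, and of 11 macrophage markers 7 were higher, among them C1qa by 4.53 (adjusted p = 0.0168). Without any 1 heart, 2 macrophage markers and 1 or 2 cardiomyocyte markers were called. Lyz2 differed by 0.14 and was not called (adjusted p = 0.816). The part of these cells in the levels of Mmp13, Mmp14, Mmp19 and Mmp12 was not tested.

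Beside Mmp8, Mmp9 and Mmp25, 8 of 11 neutrophil markers tested were called lower in heart cells and none higher, with a median of -5.02. Over all genes tested 6.52% were called lower. Ngp, Ltf and Camp, proteins of the secondary granules, were lower, with log2 differences of -10.12 ± 0.83, -9.04 ± 0.64 and -8.46 ± 0.86 (SE; adjusted p = 0.00176, 0.00101 and 0.00340). Ltf was at -3.59, -1.96 and -2.93 in heart samples, against 6.23, 7.31 and 5.12 in spleen samples, without overlap. Csf3r, the G-CSF receptor, which monocytes also carry, differed by -0.06 and was not called (adjusted p = 0.864). The summed level of the neutrophil list was 66.9 to 81.9 in heart samples and 584 to 1351 in spleen samples, and the gating antigen Ly6g had no probe. Spleen 4, low for Mmp9 and Mmp25, was also the lowest spleen for all 11 neutrophil markers tested. Among them were Retnlg, Cxcr2 and Mpo, with levels of 0.46, -3.91 and 0.46 on that array. For Mmp8, however, spleen 4 was the highest spleen. Mmp8 and these neutrophil markers thus differed in their values, and the difference between them was not tested, nor was the part of neutrophils in any of them.

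**Figure D5:**
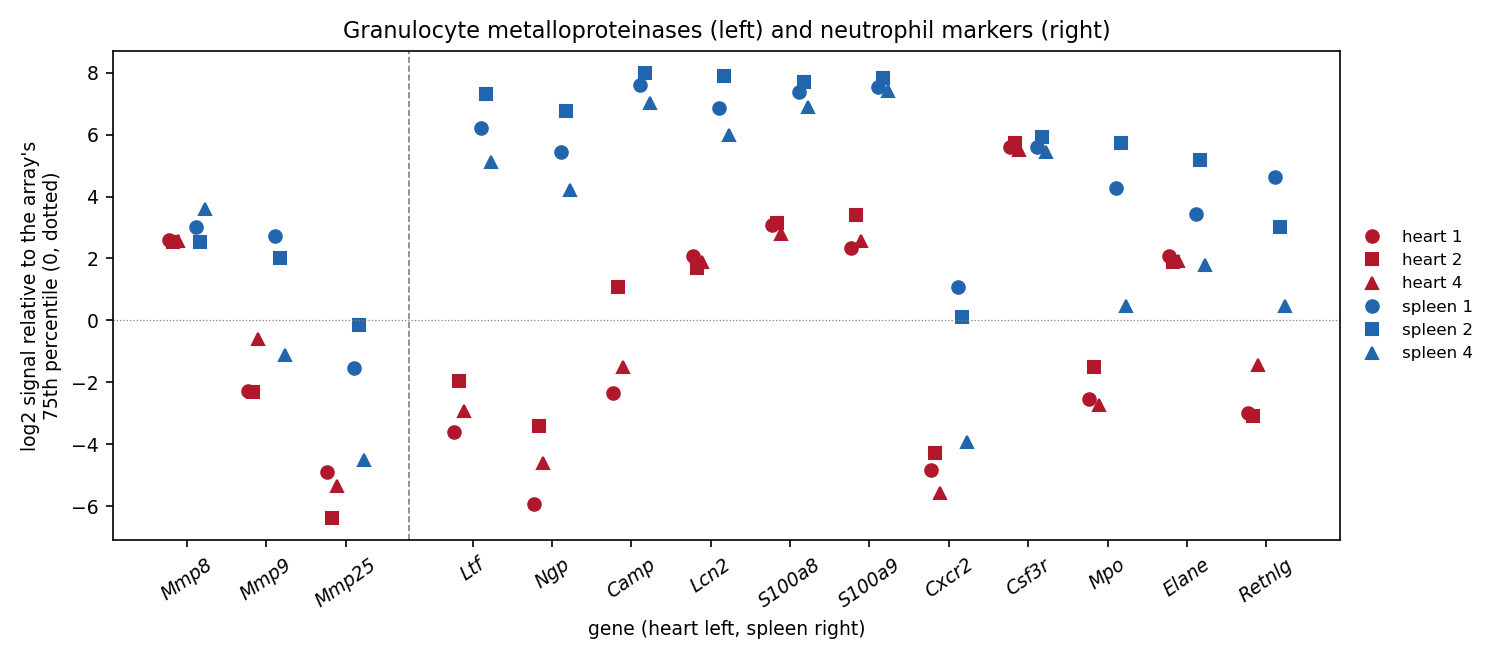
Levels of Mmp8, Mmp9 and Mmp25 (left of the dashed line) and of 11 neutrophil markers (right of it) on each array, as log2 signal relative to the array's 75th percentile, with heart arrays on the left and spleen arrays on the right of each pair. Ltf, Ngp and Camp are lower on all 3 heart arrays, Mmp8 and Csf3r overlap between tissues, and spleen 4 (blue triangle) is the lowest spleen for Mmp9 and Mmp25.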

How the data were processed

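Myeloid cells sorted from heart and spleen (3 samples each, 1 array per sample) were compared. The processed signal intensity of each spot was deposited by the authors as scanner output. The file headers name Agilent Feature Extraction 10.7.3.1 as the software that subtracted background. The deposited value table holds log2 values. Their differences between arrays followed quantile-normalised log2 signals (r of 0.993 to 0.999 over 15 pairs of arrays and 20313 probes), every column has a median of 0, and each probe's baseline stays unknown, so it served as an alternative. Here control and outlier spots were left out, spots of a probe were averaged, signals were divided by each array's 75th percentile and log2 was taken. Genes with several probes were represented by the brightest tested probe. Tissues were compared with limma 3.58.1 (lmFit, eBayes) in R 4.3.3 over 16365 genes with Benjamini-Hochberg adjustment at 0.05, and single genes outside the filter with an exact permutation test. The procedure was tested on simulated data that gave both tissues the same spread per gene. That check does not cover the wider spread between spleen arrays seen here. Figures were drawn with matplotlib 3.10.9.

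The members and the gene lists were chosen with earlier results of these data known. The genes named are all members, the sort markers and, from each list described gene by gene, up to 3 called genes with the largest change and the brightest gene not called; Cd44, Mmp24, Cxcr2, Mpo, Retnlg and the dim fibroblast markers were added after their values were seen. Some genes that this rule selects are not reported here. Deviations from the tissue means of samples with the same number correlated at -0.05, 0.04 and 0.01, so numbers were not used to pair samples. Precision is limited by the 3 arrays per tissue. Probe positions are those of the scanner files (mm9), and whether they lie in exons was not analysed here. A sample numbered 3 was not analysed here. Alternatives covered background correction, scaling, the filter, the choice of probe, variance models, slide, date and each array left out.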

Additional observations from a re-analysis of the deposited data

How the results depend on the processing

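Over the alternatives, the log2 differences of the 6 tested metalloproteinases kept their direction, except in the single later-dated pair for Mmp9, heart 4 minus spleen 4, at 0.52. The 3 called metalloproteinases became 1 (Mmp19) when probes had to be above background on all 6 arrays, which left 3 to test, 1 (Mmp13) with a separate variance per tissue, where Mmp14 had an adjusted p of 0.0858, and 5 over numbers 1 and 2 alone. Leaving out 1 array at a time gave 2 to 5: Mmp19 was lost without any 1 heart, and Mmp9 and Mmp25 were added without spleen 4. With the processed signal replaced by normexp background correction, the differences of Mmp13, Mmp14 and Mmp25 were 2.33, 3.67 and -2.10, and Mmp13, Mmp14 and Mmp19 were called.

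Over all genes, 2521 calls became 1449 with no filter, 48 with a separate variance and 85 with slide as a fixed block. They ranged from 444 to 4090 with 1 array left out, with 444, 477 and 503 calls without heart 1, heart 2 and heart 4, and 4090 without spleen 4. With slide as a fixed block, the tissue difference was that of heart 1 and spleen 4 alone. The cause of the differences between these counts was not tested. With the number as a replicate block there were 1587 calls and the same 3 metalloproteinases. The numbers share no stated origin, and 1 of 3 hearts correlated best with the spleen of its own number. Scaling to the median moved the median over all genes to 0.22, against 0.10.

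Of the 19 called genes named from the lists, 10 to 11 stayed called without 1 heart and 16 to 19 without 1 spleen. Ctsg, Fosb, Fosl1, Mmp7, Plaur, Prtn3 and Timp2 were lost without any 1 heart, Dcn without heart 1 or heart 2, and Osm without heart 1 or heart 4. Ctsg and Timp2 were lost without spleen 1 or spleen 2, Prtn3 without spleen 1 and Fosl1 without spleen 2. With slide as a fixed block 3 of the 19 stayed called, and with a separate variance 1 did. Counts called in the lists fell without any 1 heart, to 3 for AP-1 (6 with all arrays), 5 to 7 for matrix substrates (8), 3 to 4 for binding partners (6), 0 for activators (3), 2 for macrophage markers (7) and 1 to 2 for cardiomyocyte markers (4). They also fell to 6 for neutrophil markers (8), 4 to 5 for fibroblast markers (6) and 4 to 5 for inducing cytokines (6). With a separate variance none was called in these lists. When probes had to be above background on all 6 arrays, fewer genes were tested in most of them. Calls were then 2 of 7 for matrix substrates, 1 of 2 for fibroblast markers, 3 of 5 for inducing cytokines and 1 of 3 for cardiomyocyte markers. They were 5 of 8 for AP-1, 6 of 10 for binding partners, 3 of 8 for activators, 8 of 11 for macrophage markers and 7 of 9 for neutrophil markers. With slide as a fixed block none was called for AP-1, activators, cardiomyocyte markers and inducing cytokines, 4 for neutrophil markers and 2 for fibroblast markers. Directions turned only for genes that were not called: Reck without heart 1 (-0.11), spleen 1 (-0.08) or spleen 4 (-0.04), its highest value without 1 array being 0.34, and, with slide as a fixed block, Elane (0.31), Itgb2 (-0.0082) and Fn1 (-0.00064). Mmp2, Mmp3, the second Mmp12 probe and the spleen level of Mmp13 lay under the detection limit of the arrays. Values that combine the floor with arrays left out were added after seeing the data.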
